A study of Solenopsis invicta with 3 samples.

Results

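The comparison described here set antennal RNA of *SB/Sb* workers from polygyne colonies (P_Bb) against that of *SB/SB* workers from polygyne colonies (P_BB). Its members were chosen by label, not by any measured value: they are the 2 libraries, of 3 in the series, whose labels give a polygyne colony and either genotype. Both libraries drew on the same 4 polygyne colonies, so the genotypes compared here lived in shared nests. The remaining library, of *SB/SB* workers from 4 monogyne colonies (M_BB), entered the scaling and the filter and is given as a level beside the others. All workers were foragers of the red imported fire ant *Solenopsis invicta*, kept under laboratory conditions without treatment. Each worker was genotyped from its own body, antennae of the same class and colony were pooled, and the cDNA was amplified with the NuGEN Ovation kit. Each library therefore averages many individuals of several colonies, and worker age is not given in the labels. A single library stood for each class, so the values below have no replicate and no test across replicates could be run.

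In the fire ant, the social form of a colony is inherited with a supergene, a chromosomal region in which recombination between the variants *SB* and *Sb* is suppressed so that many genes pass on together. Monogyne colonies hold a single reproductive queen and only *SB/SB* workers, whereas polygyne colonies hold several queens and a mixture of *SB/SB* and *SB/Sb* workers. Antennae are the main organ of smell in ants. Odorant-binding proteins carry small molecules through the fluid of the antennal hairs, and odorant receptors in the nerve cell membrane detect them. Transposable elements are stretches of DNA that encode enzymes for their own movement, such as transposases and integrases, and they tend to accumulate where recombination is low.

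The reference held 19703 entries, of which 15589 came from the official gene set (SINVm1_gene), 3641 from a transcript assembly (XLOC) and 473 from a set of odorant receptor models (SiOR). Expected counts are the numbers of read pairs assigned to each entry, where pairs that match several entries are divided among them and the numbers need not be whole. Their totals were 3351500 in P_Bb, 3421923 for P_BB and 3948464 for M_BB. After division by a size factor for each library (0.938, 0.958 and 1.11 in that order), they are called normalized counts. The 9260 entries with a mean of at least 10 normalized counts over the 3 libraries were compared. An entry was called different at a ratio of at least 2-fold on the log2(normalized count + 1) scale, which understates the change of low entries. Odorant receptor entries, which mark antennal tissue, held 0.765% of the counts in P_Bb and 0.794% in P_BB, and 370 of the 473 passed the filter. The files name no marker genes of other cell types, so cell composition was not checked, and in pooled tissue fewer cells of a type and less RNA per cell cannot be told apart.

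The antennal profiles of *SB/Sb* and *SB/SB* nestmates were close for most genes. Of the 9260 entries compared, 279 (3.01%) were called, of which 152 (1.64%) were higher in P_Bb and 127 (1.37%) were lower. The middle 95% of the log2 ratios ran from -0.82 to 0.84, around a median of 0.03. The called entries were mostly weakly expressed, with a median mean normalized count of 16.3, against 110.2 over all entries compared. Only 5 entries with a mean of at least 100 normalized counts were called, and their values are given further on.

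**Figure D1:**
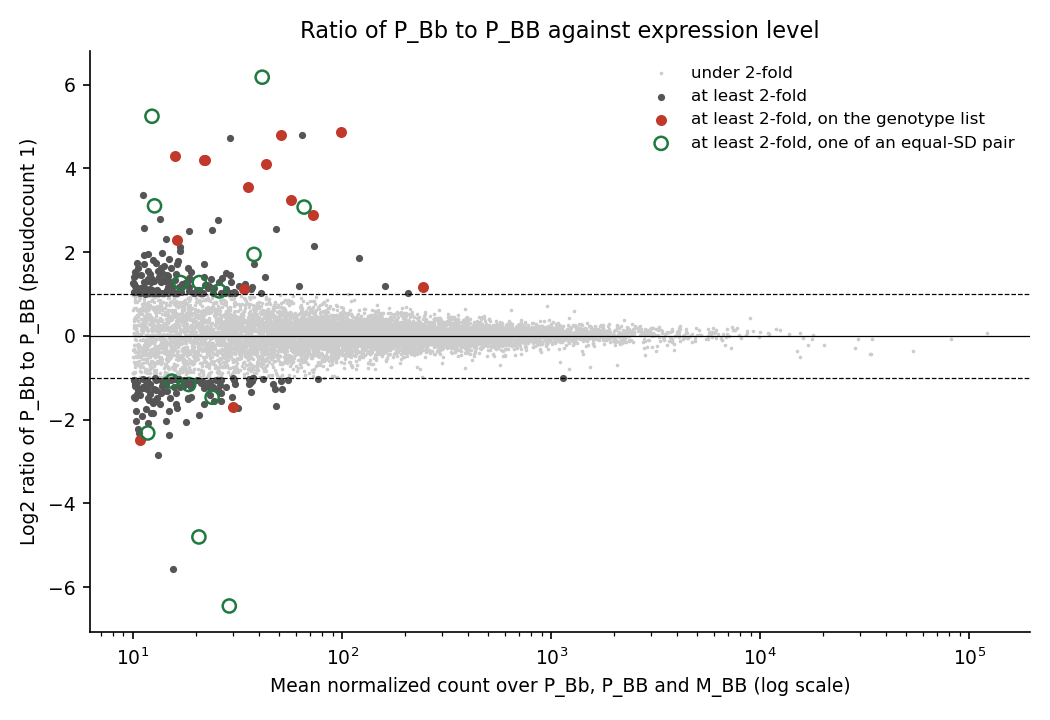
Log2 ratio of P_Bb to P_BB (vertical axis) against the mean normalized count over the 3 libraries (horizontal axis, log scale) for the 9260 entries compared, 1 point each. Dashed lines mark 2-fold; the points fan out toward low counts, and the lowest point (SiOR280) and the highest (SINVm1_gene_14573) are both ringed as members of a pair with equal posterior SD.

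Counting error alone gives a wide spread at low counts. Among entries with a mean of 10 to 20 normalized counts, 14.9% were called, and the log2 ratio had a robust standard deviation (SD) of 0.66, where counting error gave 0.57. Among entries of 100 to 500 normalized counts, 0.118% were called, with an SD of 0.20 against 0.15 from counting. At 500 or more normalized counts the SD was 0.12 against 0.07, a ratio of 1.78. The observed spread was thus wider than counting error at every level, and the excess was proportionally larger among abundant entries. Without replicates, the share of this excess that came from pooling, amplification or genotype cannot be told apart.

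**Figure D2:**
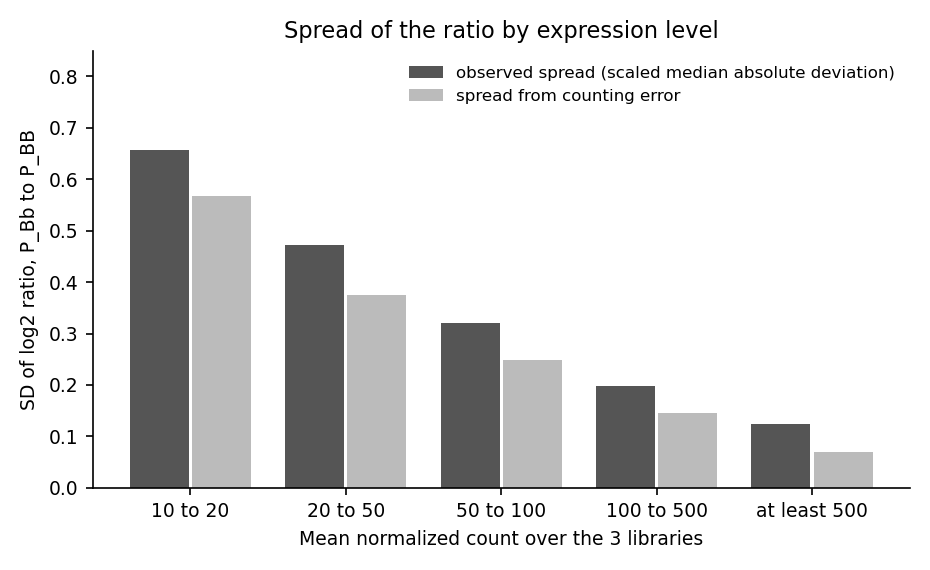
Spread of the log2 ratio of P_Bb to P_BB (vertical axis, SD in log2 units) by mean normalized count (horizontal axis). Dark bars give the observed spread, as the scaled median absolute deviation over entries, and light bars the median spread from counting error; the dark bar is the taller of each pair, from 0.66 against 0.57 at 10 to 20 counts to 0.12 against 0.07 at 500 or more.

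For single entries, a 95% Clopper-Pearson interval of the plain ratio of normalized counts was computed from counts rounded to whole numbers. The reads carried no molecular identifiers, so these intervals cover counting error only, not the division of reads among entries, and they compare these libraries rather than genotypes. Among the 279 called entries, the interval excluded 1-fold for 223. For 30 it lay wholly beyond 2-fold, with 26 entries higher and 4 lower in P_Bb. The sides were therefore near balance in the number of calls but not in the number with an interval beyond 2-fold. Such an interval depends on depth as well as on the ratio. At 4-fold or more on the log2(normalized count + 1) scale, 27 entries were higher and 13 lower in P_Bb.

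The reads behind an entry were not always its own. The posterior SD of a count, deposited with the expected counts, is near 0 where reads match a single entry and grows where they are divided among similar ones. It reached at least 1 count in P_Bb or P_BB for 49 of the 279 called entries (17.6%), against 12.7% of all entries compared. All 4 entries that were lower in P_Bb beyond 2-fold had such divided reads, and so did 6 of the 26 that were higher. The remaining 20 higher entries, with a posterior SD under 1 count in both libraries, had TPM credibility bounds, a range for the length-adjusted share of all transcripts, that did not overlap between P_Bb and P_BB (20 of 20). Of the 4 lower entries this held for 1, and of all 9260 entries compared for 659. The 20 were chosen from the same counts by an interval beyond 2-fold, so their bounds are not separate evidence. Below, "without divided reads" means a posterior SD under 1 count in both libraries. A few reads of such an entry may still be shared.

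**Figure D3:**
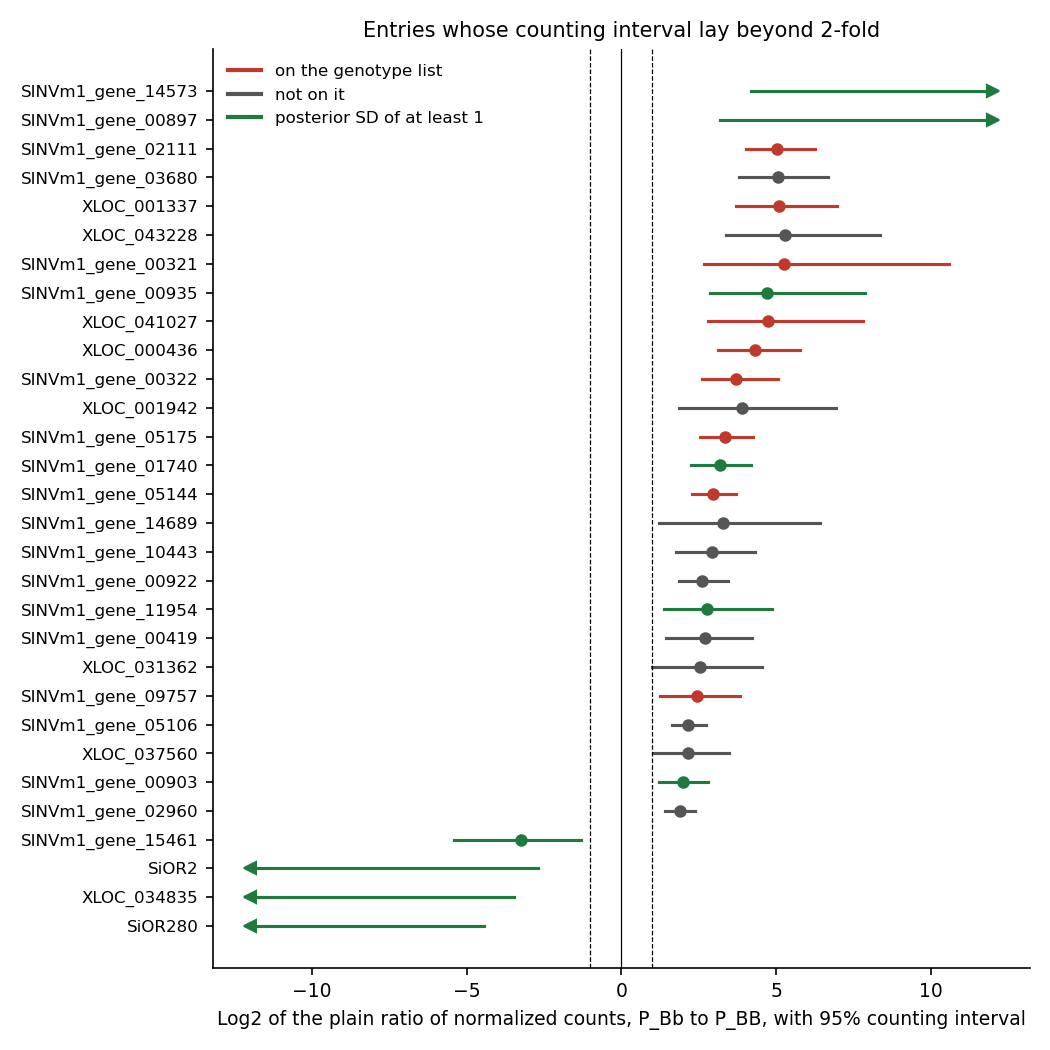
Log2 of the plain ratio of normalized counts, P_Bb to P_BB (horizontal axis), for the 30 entries whose 95% counting interval lay wholly beyond 2-fold. Points are ratios, lines are intervals, and arrows mark intervals without a limit because 1 library had 0 counts; the 4 entries on the left all have divided reads (green), as do 6 of the 26 on the right.

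The most extreme ratios of the whole comparison belonged to a pair of entries with equal posterior SD. SINVm1_gene_14573 had 67 counts in P_Bb, against 0 in P_BB and 59 in M_BB. SiOR280, an odorant receptor model, had 0 counts in P_Bb, against 83 in P_BB and 0 in M_BB. Each library thus had counts on only 1 of these entries. Their shared posterior SD was 19.6 counts in P_Bb and 14.6 counts in P_BB. Their posterior mean counts, which average over the possible divisions, were 37.1 and 29.9 in P_Bb and 19.6 and 63.4 in P_BB, with SINVm1_gene_14573 given before SiOR280. From posterior means, the log2 ratio was 0.92 for SINVm1_gene_14573 and -1.03 for SiOR280, against 6.18 and -6.45 from expected counts. Added together, the 2 entries had 67 counts in P_Bb, against 83 in P_BB and 59 in M_BB, a ratio of P_Bb to P_BB of 0.825 with a 95% interval from 0.589 to 1.15 that includes 1-fold.

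The share of each entry in a pair also differed between libraries in other pairs, to differing degrees. Whether these differences came from how reads were divided was not tested. A search made after these values were seen found 77 pairs of entries with equal posterior SDs of at least 1 count in all 3 libraries, 35 of them an official gene beside an odorant receptor model. The sequences of the entries were not compared. The pairs held 14 of the 279 called entries, in 12 of the 77 pairs, where 3.01% of all entries compared were called. When the counts of each pair were added, 4 of the 12 were still at least 2-fold different. SINVm1_gene_10645 and SiOR2 had 22 and 0 counts in P_Bb, and 2.18 and 25.8 counts in P_BB. Their summed log2 ratio was -0.30, with -4.80 for SiOR2 alone. SINVm1_gene_01740 and SiOR55 had 94.6 and 276 counts in P_Bb, and 10.6 and 326 counts in P_BB. The official gene alone had a log2 ratio of 3.08 and the pair 0.17. SINVm1_gene_05364 and SINVm1_gene_12222 had 2.89 and 70.1 counts in P_Bb, and 18.6 and 41.4 counts in P_BB, for a summed log2 ratio of 0.31. Their shared posterior SD was only 1.28 counts in P_Bb and 2.93 in P_BB. From posterior means, SiOR2, SINVm1_gene_01740 and SINVm1_gene_05364 alone had log2 ratios of -2.24, 1.85 and -2.20, still beyond 2-fold. For SINVm1_gene_01740 and SINVm1_gene_05364 the partner held most of the counts, so the sum was set mainly by the partner.

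**Figure D4:**
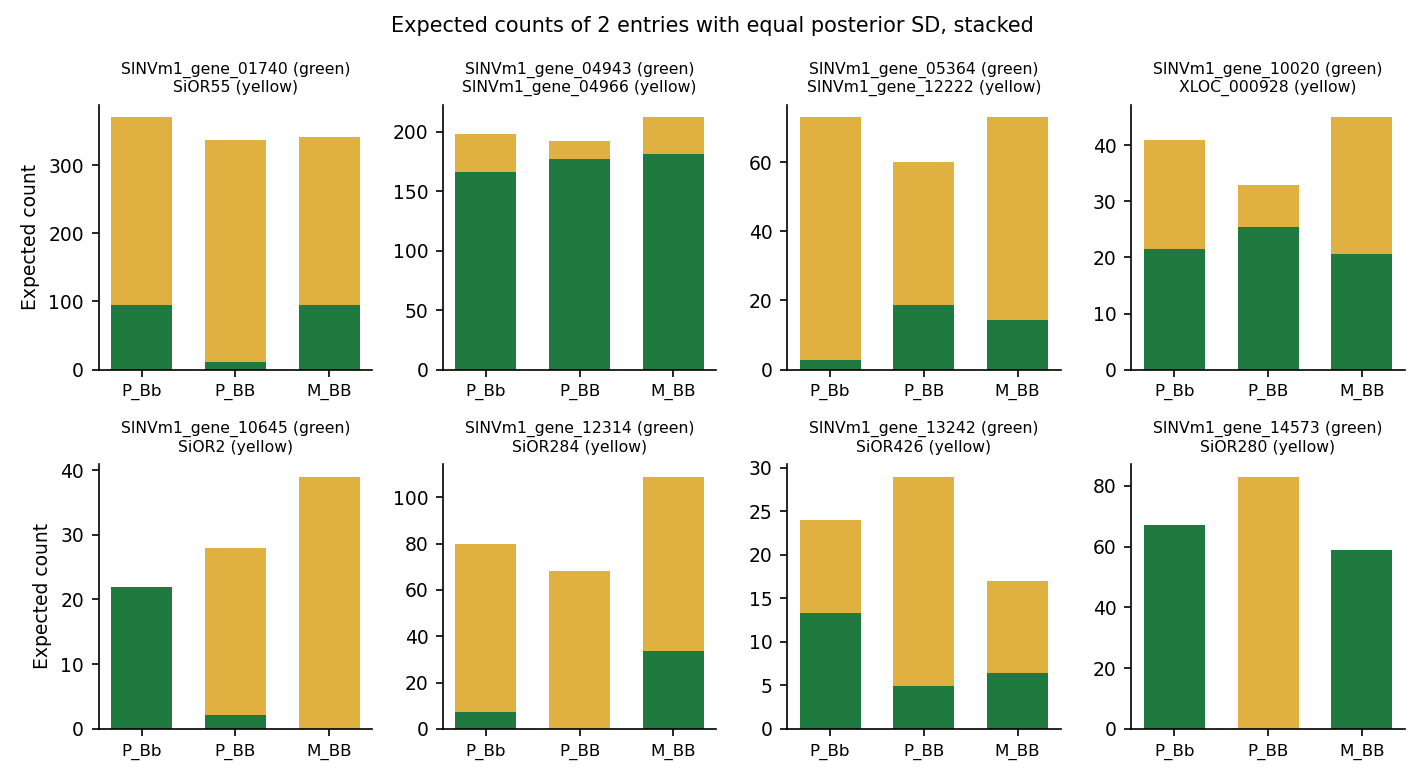
Expected counts (vertical axis) in P_Bb, P_BB and M_BB of the 8 pairs with equal posterior SD in which an entry was called on its own but the sum was not. The 2 entries of each pair are stacked in green and yellow. The share of each colour differs from library to library, whereas the full height changes by less than 2-fold between P_Bb and P_BB. For SINVm1_gene_14573 and SiOR280 the full height is 67 counts in P_Bb and 83 in P_BB.

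Pairs that were still at least 2-fold different as a sum were SINVm1_gene_00446 with SINVm1_gene_00897 (42 counts in P_Bb, 18 in P_BB), SINVm1_gene_00903 with SINVm1_gene_10788 (86.0 counts in P_Bb, 25 in P_BB), SINVm1_gene_04706 with SiOR232 (25 counts in P_Bb, 10 in P_BB) and, lower in P_Bb, SINVm1_gene_02172 with SiOR90 (12 counts in P_Bb, 30 in P_BB). All of these values are low, and only the sum of SINVm1_gene_00903 and SINVm1_gene_10788 had an interval beyond 2-fold, from 2.23 to 5.73. Of the 4 pairs, 3 were higher in P_Bb. A few called entries had a partner whose posterior SD differed by at most 1%. XLOC_034835, an uncharacterized gene of the study's social form list, had 0 counts in P_Bb, against 44.4 in P_BB, with a posterior SD of 46.6 and 34.2 counts. Its partner XLOC_034816 had 319 counts in P_Bb, against 286 in P_BB, and the sum had a log2 ratio of -0.02. From posterior means, XLOC_034835 alone was at 0.09 in place of -5.57. SINVm1_gene_11954 had 28.8 counts in P_Bb, against 4.27 in P_BB beside SINVm1_gene_04542 with 1030 and 1099 counts, and that sum had a log2 ratio of -0.03. SINVm1_gene_15461 had 2.58 counts in P_Bb, against 25.1 in P_BB beside XLOC_041599 with 288 and 213 counts, and that sum had a log2 ratio of 0.32. In these 3 the partner held most of the counts, so the sum was set by the partner and says little about the smaller entry.

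The genes that the study had listed as different by supergene genotype held 9 of the 20 entries that were higher beyond 2-fold without divided reads. That list was chosen by the study on other libraries of the same amplified cDNA, so its direction here is not independent evidence. All 38 listed identifiers were present, 17 official genes and 21 XLOC models, and the XLOC models were matched by number alone. The filter was passed by 22 entries, in part through their level in P_Bb, and 13 of these were called in the listed direction, against 1.64% of all entries called higher and 1.37% called lower. The median log2 ratio was 2.59 over the 18 compared that were listed as higher and -0.60 over the 4 listed as lower, and 0.03 over all entries. Of the 28 compared entries on the study's social form list, which concerns monogyne against polygyne workers, 1 was called higher and 1 lower in P_Bb, with a median log2 ratio of 0.08.

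**Figure D5:**
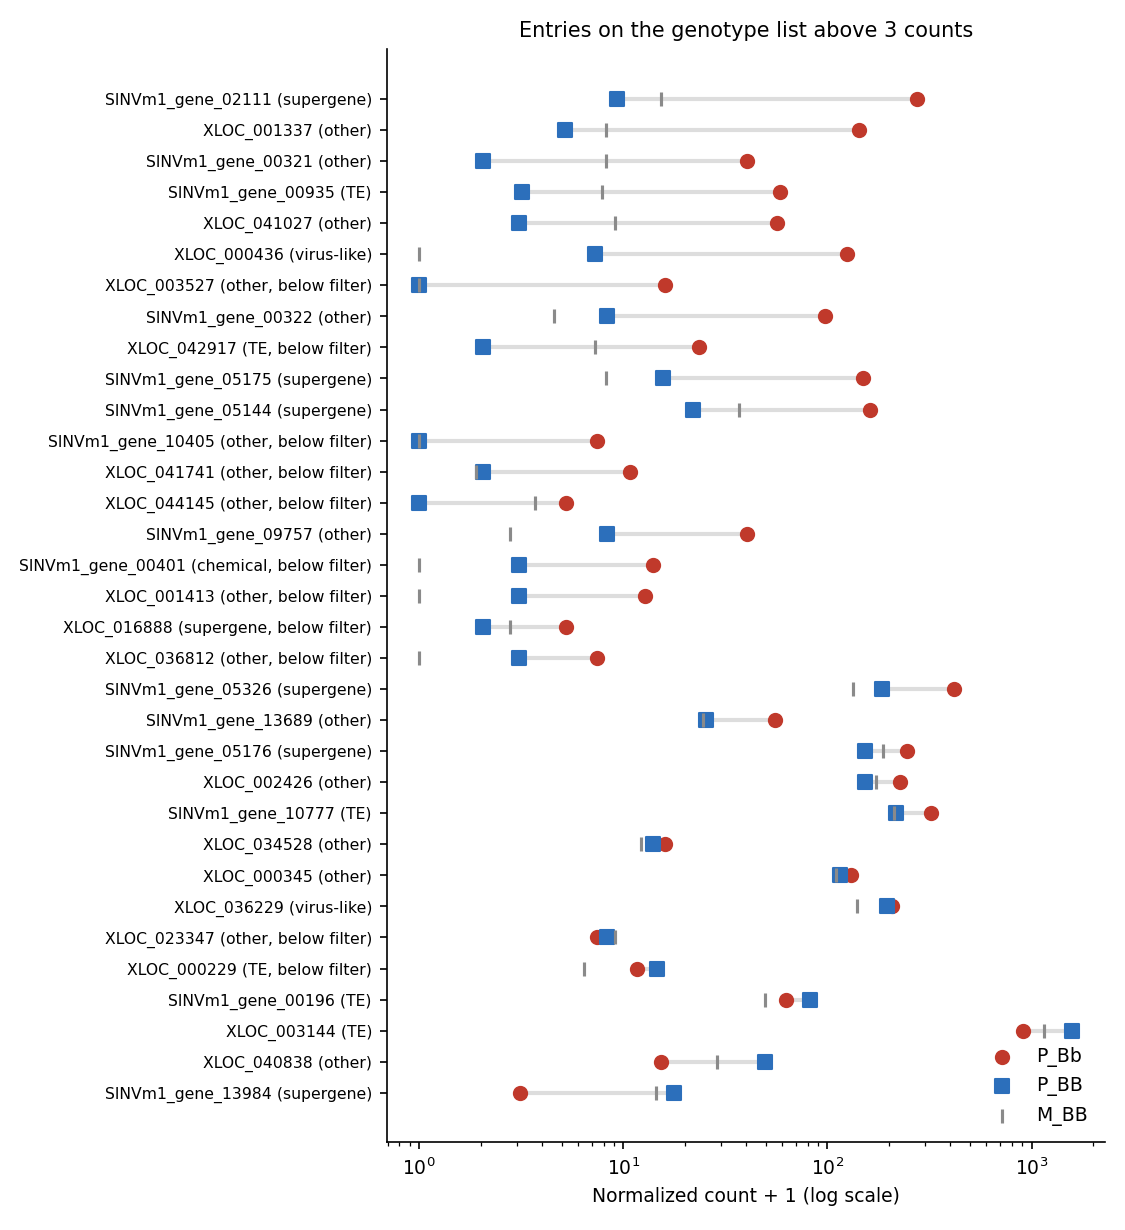
Normalized counts plus 1 (horizontal axis, log scale) in P_Bb, P_BB and M_BB of the entries on the study's genotype list with over 3 counts in P_Bb or P_BB, sorted by the log2 ratio of P_Bb to P_BB with a pseudocount of 1. Each row is 1 entry with its class; SINVm1_gene_02111 at the top had 274 normalized counts in P_Bb and 8.35 in P_BB, and SINVm1_gene_13984 at the bottom had 2.13 and 16.7.

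Genes inside the supergene made up 7 of the list. SINVm1_gene_02111, the odorant-binding protein gene *SiOBP12*, had 274 normalized counts in P_Bb, against 8.35 in P_BB and 14.4 in M_BB. The ratio of P_Bb to P_BB was 32.8 (95% interval 16.4 to 76.9), the highest lower limit of any entry with a posterior SD under 1 count in both libraries. Its posterior SD was 0.73 counts in P_Bb and 0 in P_BB. RSEM, the counting program, placed its TPM between 141 and 180 in P_Bb and between 2.21 and 9.27 in P_BB. Reads of a near-identical gene copy would be counted under the same entry, so this ratio cannot be assigned to *SiOBP12* itself. From its other libraries, the study attributes the high level to a second copy that it names *SiOBP12b'*. It located that copy on *Sb* and found none on *SB*. Which copy the reads counted here came from was not tested.

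SINVm1_gene_05175, predicted to encode an NADH dehydrogenase, an enzyme of the respiratory chain, had 148 normalized counts in P_Bb, against 14.6 in P_BB and 7.19 in M_BB, a ratio of 10.1 (5.85 to 19.0). SINVm1_gene_05144 had 161 normalized counts in P_Bb, against 20.9 in P_BB and 35.9 in M_BB, a ratio of 7.72 (4.82 to 13.0). SINVm1_gene_05326 had 417 normalized counts in P_Bb, against 185 in P_BB and 132 in M_BB, a ratio of 2.26 (1.89 to 2.71). In each, P_Bb was the highest library, and the *SB/SB* libraries lay nearer to each other than to P_Bb. The study's sources differ on which of SINVm1_gene_05144 and SINVm1_gene_05326 is the coiled-coil domain-containing protein, so neither is given a function here.

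SINVm1_gene_05176, a predicted phosphatase with a ubiquitin-like domain, was not called, with 243 normalized counts in P_Bb, against 152 in P_BB and 187 in M_BB and a ratio of 1.60 (1.29 to 1.98). SINVm1_gene_13984, a predicted receptor tyrosine kinase of the Ror type, was listed as higher in *SB/Sb* but had 2 counts in P_Bb, against 16 in P_BB and 15 in M_BB. Its ratio was 0.128 (0.0142 to 0.543), the opposite of the direction listed. XLOC_016888, annotated as an odorant receptor and listed as lower, was below the filter with 4 counts in P_Bb, against 1 in P_BB and 2 in M_BB, a ratio of 4.09 whose interval (0.405 to 201) spans 1-fold. The study calls XLOC_016888 SiOR463, and a separate entry of that name is given further on.

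Transposable elements made up 10 of the list and were mostly too low to compare. The filter was passed by 4, and 1 of these was called in the listed direction. SINVm1_gene_00935, of the Harbinger nuclease type, had 57.3 normalized counts in P_Bb, against 2.18 in P_BB and 6.89 in M_BB, a ratio of 26.3 (7.28 to 234). Its posterior SD was 4.13 counts in P_Bb and 2.24 in P_BB, so a part of its reads matched other entries. SINVm1_gene_10777, of the same type, was not called, with 320 normalized counts in P_Bb, against 217 in P_BB and 210 in M_BB and a ratio of 1.48 (1.23 to 1.77). The Copia element XLOC_042917 fell just below the filter with 21 counts in P_Bb, against 1 in P_BB and 7.01 in M_BB, a ratio of 21.5 (3.45 to 888). These elements were highest in P_Bb.

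The elements listed as lower in *SB/Sb* were not called. The Tc1 transposase XLOC_003144 had 906 normalized counts in P_Bb, against 1579 in P_BB and 1154 in M_BB, a ratio of 0.574 (0.527 to 0.625), and was lowest in P_Bb. SINVm1_gene_00196, of the Harbinger nuclease type, had 61.9 normalized counts in P_Bb, against 81.4 in P_BB and 48.3 in M_BB, a ratio of 0.760 with an interval (0.531 to 1.08) that includes 1-fold. The Gypsy element XLOC_000229, listed as higher, had 10 counts in P_Bb, against 13 in P_BB. The other 4 had at most 3 counts in P_Bb and in P_BB: SINVm1_gene_00166 and XLOC_001664 each had 3 counts in P_Bb, against 0 in P_BB, and SINVm1_gene_09325 and XLOC_001846 had 0 in both. No fold is given for these 4.

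Of the 2 virus-like entries, XLOC_000436, annotated as a lambda-type exonuclease, had 124 normalized counts in P_Bb, against 6.26 in P_BB and 0 in M_BB, a ratio of 19.8 (8.81 to 54.9). XLOC_036229, annotated only as an open reading frame, had 205 normalized counts in P_Bb, against 195 in P_BB and 139 in M_BB, a ratio of 1.05 (0.853 to 1.29). The exonuclease entry thus stood apart in P_Bb and the open reading frame did not. The cytochrome P450 gene SINVm1_gene_00401, a member of a family of detoxifying enzymes, was below the filter with 12.2 counts in P_Bb, against 2 in P_BB and 0 in M_BB, a ratio of 6.22 (1.37 to 56.4).

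Most other listed entries have no predicted function. XLOC_001337 had 142 normalized counts in P_Bb, against 4.17 in P_BB and 7.19 in M_BB, a ratio of 34.0 (13.0 to 127). SINVm1_gene_00322 had 96.0 normalized counts in P_Bb, against 7.30 in P_BB and 3.59 in M_BB, a ratio of 13.1 (6.12 to 33.6). SINVm1_gene_00321 had 37 counts in P_Bb, against 1 in P_BB and 8 in M_BB, and XLOC_041027 had 52, 2 and 9. All 4 were highest in P_Bb by a wide margin. Also called as listed were SINVm1_gene_09757, with a ratio of 5.40 (2.38 to 14.4), SINVm1_gene_13689, with 2.22 (1.36 to 3.89), and XLOC_040838, listed as lower, with 0.293 (0.140 to 0.531). On the log2(TPM + 1) scale XLOC_040838 was at -0.82 and no longer called, against -1.70 from counts. XLOC_000345, XLOC_002426 and XLOC_034528 passed the filter without being called, with ratios of 1.12, 1.50 and 1.16. On the log2(TPM + 1) scale XLOC_000345 was at -0.36, in the other direction.

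Below the filter lay 16 of the 38. Of these, 11 exceeded 3 counts in P_Bb or P_BB, 9 of them higher and 2 lower in P_Bb. XLOC_003527, whose predicted protein has epidermal growth factor-like domains, had 14 counts in P_Bb, against 0 in P_BB. It was at least 4.77-fold higher when 3 counts are taken as the floor of P_BB, and the counting interval of the ratio had a lower limit of 3.39. SINVm1_gene_10405 had 6 counts in P_Bb, against 0 in P_BB, at least 2.04-fold higher by the same floor and with a lower limit of 1.203. XLOC_041741, predicted to hold a BEN domain, had 9.17 counts in P_Bb, against 1 in P_BB, and XLOC_001413 had 11 and 2. For XLOC_036812 (6 counts in P_Bb, 2 in P_BB), XLOC_044145 (4 and 0) and XLOC_023347 (6 and 7), the intervals included 1-fold. XLOC_000568 had 0 counts in both.

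Of all 19703 entries in the reference, filtered or not, 13 had at least 20 counts in P_Bb and at most 3 in P_BB. The reverse held for 4 entries. Of the 13, 4 were on the genotype list, which holds 38 of the 19703, and 3 were in pairs with equal posterior SD. Of the 4 with the reverse, 2 were in such pairs.

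Outside the list, several entries without an annotation in the sources used here differed as much. SINVm1_gene_03680 had 173 normalized counts in P_Bb, against 5.22 in P_BB and 14.4 in M_BB, a ratio of 33.1 (13.9 to 103). XLOC_043228 had 81.1 normalized counts in P_Bb, against 2.09 in P_BB and 4.49 in M_BB, a ratio of 38.8 (10.4 to 326). SINVm1_gene_00922 had 109 normalized counts in P_Bb, against 17.7 in P_BB and 18.9 in M_BB, a ratio of 6.12 (3.65 to 10.9). In all 3 the *SB/SB* libraries of both social forms were low. The same order held for SINVm1_gene_10443 with 55.5 normalized counts in P_Bb, against 7.30 in P_BB and 13.5 in M_BB, and for XLOC_001942 with 28 counts in P_Bb, against 1.93 in P_BB and 2 in M_BB. SINVm1_gene_09401, below the filter, had 26.6 counts in P_Bb, against 1.06 in P_BB and 0 in M_BB.

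Entries lower in P_Bb with little sharing of reads had smaller ratios. SINVm1_gene_00316 had 3.02 counts in P_Bb, against 20 in P_BB and 22.9 in M_BB, and SINVm1_gene_07815 had 5, 24 and 14. Their ratios were 0.154 (0.0292 to 0.517) and 0.213 (0.0634 to 0.569). Both intervals reached within 2-fold. Without divided reads, 101 entries were called lower and 129 higher in P_Bb, and an interval beyond 2-fold was reached by 0 of the 101 and 20 of the 129.

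Among abundant entries, the 5 called ones fell into more than 1 pattern. SINVm1_gene_05326 is described above. XLOC_007352 had 257 normalized counts in P_Bb, against 112 in P_BB and 115 in M_BB, a ratio of 2.30 (1.83 to 2.92), and here too P_Bb was the library that stood apart. SINVm1_gene_02960 had 189 normalized counts in P_Bb, against 51.1 in P_BB and 123 in M_BB, a ratio of 3.69 (2.68 to 5.17). XLOC_016844 had 236 normalized counts in P_Bb, against 115 in P_BB and 269.9 in M_BB, a ratio of 2.05 (1.63 to 2.60). On the log2(TPM + 1) scale XLOC_016844 was at 0.91, under the threshold. SINVm1_gene_10534 had 888 normalized counts in P_Bb, against 1791 in P_BB and 730 in M_BB, a ratio of 0.496 (0.456 to 0.539). In the last 3, P_BB was the library apart, and M_BB, which shares its genotype, lay nearer to P_Bb.

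M_BB was placed in the same way for all called entries. Among the 152 entries called higher in P_Bb, M_BB lay nearer to P_BB on the log2 scale in 66 (43.4%), and among the 127 called lower in 86 (67.7%). Over all entries with a ratio above 1 the share was 53.9%, and over those with a ratio below 1 it was 49.7%. Among the 20 higher entries beyond 2-fold without divided reads, M_BB lay nearer to P_BB in 17. Of these 20, 9 were on the study's genotype list, whose members were chosen for P_Bb apart from both P_BB and M_BB. Their position was therefore in part set by that choice. M_BB also counted in the filter, so a high level in M_BB helped weak entries to pass. M_BB thus lay on the side of P_BB for most of these large upward ratios and for 66 of all 152 upward calls, a difference that was not tested. M_BB also differs from both others in social form and colonies, so its position is a description only.

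The 370 odorant receptor entries compared were close between the genotypes. The median log2 ratio was -0.04, with 168 entries above 0 and 202 below, and 11 were called (2.97%, against 3.01% of all entries). The share was at the background. Higher in P_Bb were 3 entries and lower were 8. As sums of normalized counts, receptor entries had 27326 in P_Bb, against 28340 in P_BB and 24697 in M_BB.

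Of the 11 receptor calls, 3 (SiOR2, SiOR280 and SiOR426) belonged to pairs with equal posterior SD whose sums were within 2-fold. For SiOR426 the posterior SD was small, 1.47 counts in P_Bb and 1.51 in P_BB, with posterior means of 10.8 and 23.8 counts. Its partner SINVm1_gene_13242 went the other way, with 13.4 counts in P_Bb and 4.89 in P_BB. From posterior means, SiOR2 was still at a log2 ratio of -2.24. SiOR415 had 43.5 counts in P_Bb, against 21.0 in P_BB, beside SINVm1_gene_09149 with 11.4 and 36.0, and the sum had a log2 ratio of -0.02. SiOR380 had 9.78 counts in P_Bb, against 21.4 in P_BB, with an interval (0.205 to 1.08) that includes 1-fold. SiOR425 had 17.2 normalized counts in P_Bb, against 6.58 in P_BB and 6.30 in M_BB, with an interval from 1.01 to 8.50 and a posterior SD of 1.44 and 1.71 counts. Both entries were low, and both had divided reads. SiOR177 had 37.3 normalized counts in P_Bb, against 78.7 in P_BB and 49.3 in M_BB, a ratio of 0.474 (0.310 to 0.721), with a posterior SD of 3.30 and 5.04 counts. With a pseudocount of 5, only 4 of the 11 receptors were still called. SiOR177 (-0.99) and SiOR415 (0.93) were among those that fell under the threshold on the log2 scale. A posterior SD under 1 count in both libraries was found for 4 of the 11. SiOR401 had 11.7 normalized counts in P_Bb, against 36.5 in P_BB and 30.6 in M_BB, a ratio of 0.321 (0.147 to 0.647). SiOR49 had 30.9 normalized counts in P_Bb, against 11.5 in P_BB and 13.5 in M_BB, a ratio of 2.69 (1.31 to 5.98). In both, M_BB lay nearer to P_BB. The others of the 4, SiOR298 and SiOR362, were lower in P_Bb with intervals that reached to 0.998 and 0.935.

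The receptor models that bear the names used by the study were low or did not separate. The entry named SiOR463 had 39 counts in P_Bb, against 49.9 in P_BB, a ratio of 0.798 (0.511 to 1.24). It was matched by name only, and its sequence was not compared with that of XLOC_016888. SiOR163 had 1.25 counts in P_Bb, against 0 in P_BB, and SiOR462 had 0 and 2, so no fold is given. The study also gives SiOR462 an official gene identifier, and the values of that entry are not given here. The 3 most abundant entries of the libraries hardly differed: the ratio of P_Bb to P_BB was 0.949 for SINVm1_gene_06964, 1.02 for SINVm1_gene_06799 and 1.06 for SINVm1_gene_03973.

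By kind of entry, XLOC models were called most often, in 68 of 993 (6.85%), against 200 of 7897 official genes (2.53%). They were also lower expressed, with a median mean normalized count of 38.3 against 133, and 35.1% had divided reads against 8.48%. The median log2 ratio was -0.06 for XLOC models and 0.03 for official genes. Of the 2320 entries of up to 843 bases, 4.91% were called, with 67 higher and 47 lower in P_Bb, and of the 2309 entries from 1408 to 2511 bases, 2.04% were. Short entries were lower in counts as well, with a median mean of 63.7 normalized counts against 147 in the longer set, and the part of length itself was not tested.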

How the data were processed

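Antennal RNA was sequenced as read pairs; libraries were assigned by the labelled colony type and genotype. The authors aligned pairs with Bowtie to transcript sequences and estimated counts with RSEM (the study gives versions for its other libraries; for these they are not given in the sources used here). The deposited expected counts are unnormalized estimated counts. The deposited TPM values, posterior mean counts, posterior SDs and TPM credibility bounds came from RSEM; the level of the bounds is not stated. Counts were divided by each library's 75th percentile (zeros included), with the 3 factors set to a geometric mean of 1. Fold changes used a pseudocount of 1, plain ratios none. A library with at most 3 counts was at the floor.

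Depth was 3351500 counts in P_Bb and 3421923 in P_BB, so that 10 normalized counts stand for 9.38 and 9.58 counts.

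Named entries were those of the study's genotype list; called entries with a mean of at least 100; for each direction the 8 called entries outside the list whose interval limit lay farthest from 1-fold; entries with at most 3 counts in 1 library and at least 20 in the other (at most the 8 highest); up to 6 called odorant receptors by the same limit; the receptors the study names; and the 3 entries with the highest mean TPM. Partners of entries with equal posterior SD, and the 5 other called receptors, were named after their values were seen. Members and lists were chosen with earlier results of these data known.

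The RefSeq gene table matched 0 identifiers and the transcript models did not name the entries, so no positions or sequences are given. The authors' file of expression patterns was not used. Alternatives were TMM (edgeR 4.0.16) and median-of-ratios scaling (DESeq2 1.42.0) on counts rounded to whole numbers, library totals, posterior means, TPM, other pseudocounts, filters, thresholds and intervals. The calculation was tested on simulated data with Python 3.11.15, numpy 2.4.6 and scipy 1.17.1.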

Additional observations from a re-analysis of the deposited data

How the results depend on the processing

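No paired analysis was possible because P_Bb and P_BB have 1 library each, and for that reason none could be left out in turn. The 279 calls (152 higher, 127 lower in P_Bb), the 13 listed entries and the 1 listed transposable element changed by at most 1.5 times under TMM, median-of-ratios and total scaling, posterior means, a pseudocount of 0.5 and both interval rules, and so did the calls under pair sums, an alternative chosen after seeing the data (269 calls, 147 higher and 122 lower). The filter moved them most: without one, 2785 entries (1445 higher, 1340 lower), 23 listed entries, 4 listed elements and 41 receptors were called. With a mean of at least 100 it was 5 (4 and 1), 1 listed entry, 0 elements and 0 receptors; this filter drops entries high in P_Bb alone. With TPM it was 960 (498 and 462) and 17 receptors, over 11218 entries. A pseudocount of 5 gave 146 (84 and 62) and 4 receptors. At 1.5-fold it was 1014 (531 and 483), 2 elements and 63 receptors, and at 4-fold 40 (27 and 13) and 2 receptors. With the filter on P_Bb and P_BB alone, 2 elements were called. With a posterior SD under 1 count, 0 elements and 4 receptors were called, and with the posterior SD in the interval, 6 receptors, in place of the 11 in the report. Of 455 alternative log2 ratios of 65 named entries, 433 stayed within the counting interval, 21 left it, and XLOC_034835, a called entry, turned to 0.0925 with posterior means. XLOC_000345, not called, was at -0.36 with TPM, against 0.17. No scaling moved the median of all entries by more than 0.03. At 10 normalized counts a 2-fold ratio is within counting error, so the weak calls are bounded by depth, and no value here has a replicate.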
